A study of Mus musculus with 235 samples.

Results

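The Zfp36 family of mRNA decay factors was followed through 8 punched brain regions of mice given dexamethasone or vehicle. Its 3 members in the count table, Zfp36 (also called tristetraprolin), Zfp36l1 and Zfp36l2, were found by gene symbol among 27998 genes, 27645 of which had a symbol. The mouse relative Zfp36l3 was also in the table and had 0 counts in all 235 libraries. The animals were male C57Bl/6 mice aged 3 months. Of 30 animals, 15 received saline (vehicle) and 15 received dexamethasone, a synthetic glucocorticoid, at 10 mg/kg into the peritoneum, 4 h before the brains were collected. Punches carried the region labels dCA1, vCA1, dDG, vDG, AMY, PVN, PFC and CER, which are used here unexpanded. Each group of 1 region and 1 arm held 13 to 15 libraries, each from a different animal, with 118 vehicle and 117 dexamethasone libraries in all.

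Proteins of this family carry a pair of CCCH zinc fingers that bind AU-rich elements in the 3′ untranslated region of an mRNA. They then bring in the CCR4-NOT complex, which shortens the poly(A) tail, and the mRNA is decapped and degraded. Zfp36 is known as an early response gene that limits inflammatory mRNAs such as Tnf, and its protein is held inactive by the p38 and MK2 kinases with 14-3-3 proteins. Zfp36l1 and Zfp36l2 are known for roles in development, in vessels and in lymphocytes.

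A library held between 268538 and 1451422 counts (median 742957). All libraries were whole-tissue punches, so fewer cells of a type and less RNA per cell cannot be told apart. The region labels were compared with marker genes. Gabra6, which cerebellar granule cells express, had no count in the 15 CER vehicle libraries, and no CER library exceeded 15.9 CPM (counts scaled to a common library total). It was above 10 CPM in 7 of the 30 vDG libraries, in 1 library each of vCA1, CER and PFC, and in none of the other regions, with a highest value of 339.6 CPM in vDG. The tests by region and between regions were repeated without these libraries, and the members' main values without them stand beside the results. The animal sums were not repeated. Oxt and Avp, genes of hypothalamic neurons, were highest in PVN, at means of 275 and 86.3 CPM in vehicle libraries. Prox1, a marker of dentate granule cells, averaged 521 CPM in dCA1 vehicle libraries and 462 CPM in dDG, and Dsp, another dentate gene, averaged 125 and 115 CPM. Wfs1, which CA1 neurons express, averaged 43.0 CPM in dCA1 and 58.4 CPM in dDG. The markers thus did not separate dCA1 from dDG, and both names are used here as labels only. In vCA1 the arms differed in dentate genes. Dsp averaged 7.78 CPM in vehicle and 31.1 CPM after dexamethasone (edgeR, adjusted p 0.000788), Npnt 12.9 and 32.1 CPM (edgeR, adjusted p 0.00837) and Prox1 104 and 181 CPM (edgeR, adjusted p 0.0522). RNA integrity (RIN) averaged 5.69 to 7.81 over the 16 groups.

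The count table placed Zfp36 (ENSMUSG00000044786) at chr7:28376784-28380253 on the minus strand of GRCm38 (mm10), with 3470 exon bases, and it gave 4466 counts in all. Zfp36l1 (ENSMUSG00000021127) lay at chr12:80107760-80113013 on the minus strand, with 2984 exon bases and 9069 counts. Zfp36l2 (ENSMUSG00000045817) lay at chr17:84183931-84187947 on the minus strand, with 3530 exon bases. It gave 873 counts, and 12 of the 235 libraries had none. Other annotated genes overlap Zfp36 and Zfp36l1 on the plus strand. Gm44710 covers 3.60% of the Zfp36 exon bases and Gm26669 covers 56.0% of those of Zfp36l1, and each had 2 counts in all. Whether counting used strand is not given in the sources used here, so reads of these pairs may not have been separated.

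The members' own mRNAs hold the element that the family binds, and 1 stretch of 30 bases from each 3′ untranslated region is shown for that reason. The capitals mark the heptamer TATTTAT, written as DNA, on the transcript strand of GRCm38, read 5′ to 3′. The stretches lie at chr7:28376958-28376987, chr12:80108422-80108451 and chr17:84184914-84184943, all on the minus strand.
Zfp36: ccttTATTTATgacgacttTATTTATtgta
Zfp36l1: cttatcaaaacgTATTTATtgccaaactat
Zfp36l2: aactatttaactTATTTATtatcttgtgaa
The Zfp36 stretch held 2 copies. Each of the 3 members had 3 copies in its 3′ untranslated region, which measured 774 bases in Zfp36, 1835 in Zfp36l1 and 1822 in Zfp36l2. At least 3 copies were present in 4.08% of the 20789 genes with an annotated 3′ untranslated region, and at least 1 in 27.5%. A match to these letters is a description of sequence and shows no binding.

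The RefSeq promoter table (GRCm38.p6, from 250 bases before to 50 bases after the start) held Zfp36 and Zfp36l1, and the 2 windows differed in the motifs searched. The Zfp36 window held a CArG box, the element of serum response factor, from base -58 to base -49 before the start, at chr7:28379267-28379296 on the minus strand. This stretch lies inside the gene's span in the count table, where a GENCODE transcript with an earlier start has an exon. The Zfp36l1 window held TATAAA from base -29 to base -24, at chr12:80113025-80113054 on the minus strand, just outside the gene. The capitals mark these motifs.
Zfp36: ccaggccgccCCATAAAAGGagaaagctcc
Zfp36l1: cccaccaaatctTATAAAttgggctttgcg
A CArG box, searched on both strands, was present in 1.63% of the 32851 promoter windows, and TATAAA, searched on the gene's strand only, in 8.32%. Neither window held the single site of the glucocorticoid response element, AGAACA or TGTTCT, (19.0% of windows), its full palindrome with at most 2 mismatches (1.84%), or the cyclic AMP response element TGACGTCA (1.79%). A palindrome without mismatches also holds this site. The search says only that these letters are not in these windows.

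Dexamethasone and vehicle were compared first for Zfp36, which rose in 8 of 8 regions and was between 2.57 and 5.35 times as high in mean CPM. Every one of the 117 dexamethasone libraries lay above the vehicle median of its region, and 102 lay above the highest vehicle library. The arms did not overlap at all in 3 regions, AMY, CER and vCA1. Over all genes and regions tested, such a separation upward was seen in 0.295% of tests.

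In CER, Zfp36 ranged from 8.08 to 16.2 CPM over the vehicle libraries (median 12.1) and from 51.3 to 94.0 CPM after dexamethasone (median 61.9). The log2 fold change was 2.40 ± 0.12 (SE, edgeR quasi-likelihood test with Benjamini-Hochberg adjustment, adjusted p 4.13e-19). In that region 3.90% of 9035 genes were higher past the threshold, an adjusted p of 0.05. CER thus had both the narrowest vehicle spread of Zfp36, with an SD of 2.49 CPM around 12.4, and the highest level after dexamethasone, 66.3 ± 13.6 CPM (SD, n = 15). Without the CER library rich in Gabra6 the change was 2.38. In AMY the vehicle libraries held 6.73 to 20.1 CPM (median 9.63) and the dexamethasone libraries 21.7 to 77.2 CPM (median 50.2). The change was 2.17 ± 0.17 (edgeR, adjusted p 2.78e-12), with 3.54% of genes higher. In vCA1 the vehicle libraries held 1.76 to 18.3 CPM (median 8.86) and the dexamethasone libraries 21.8 to 50.1 CPM (median 36.7). The change was 1.94 ± 0.18 (edgeR, adjusted p 5.66e-11), with 3.41% of genes higher. It was 2.04 with the mean log2 level of 6 dentate genes as a covariate and 1.91 without the library rich in Gabra6.

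In the other 5 regions the arms overlapped through a few libraries. In PVN the vehicle libraries held 5.24 to 26.4 CPM (median 7.70) and the dexamethasone libraries 25.9 to 45.9 CPM (median 35.3). Vehicle replicate 1 alone reached the dexamethasone range, and 14 of 15 dexamethasone libraries lay above it. The change was 2.04 ± 0.15 (edgeR, adjusted p 2.77e-14), with 3.57% of genes higher. In vDG the vehicle libraries held 2.48 to 40.7 CPM (median 9.77) and the dexamethasone libraries 31.4 to 121 CPM (median 46.0). Both arms spread most widely in vDG, where the change was 2.11 ± 0.25 (edgeR, adjusted p 1.05e-07), with 2.64% of genes higher. Without the 7 libraries rich in Gabra6 the vDG change was 2.04.

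In dCA1 the vehicle libraries held 4.51 to 30.3 CPM (median 7.23) and the dexamethasone libraries 20.4 to 56.2 CPM (median 36.0). The highest vehicle library, replicate 4, had 297943 counts and a RIN of 4.2. The change was 1.87 ± 0.20 (edgeR, adjusted p 1.37e-08), with 2.57% of genes higher, and it was 1.97 without that library. In PFC the vehicle libraries held 3.49 to 16.4 CPM (median 6.78) and the dexamethasone libraries 14.7 to 47.2 CPM (median 24.0). PFC had the lowest level of Zfp36 in both arms, with a change of 1.62 ± 0.19 (edgeR, adjusted p 1.19e-08) beside 3.86% of genes higher, and 1.57 without the library rich in Gabra6. In dDG the vehicle libraries held 3.30 to 23.4 CPM (median 12.1) and the dexamethasone libraries 15.2 to 65.7 CPM (median 30.9). Among the 8 regions dDG had the smallest change, 1.38 ± 0.21 (edgeR, adjusted p 2.86e-05), with 2.33% of genes higher. With the replicate number as a block the number of genes past the threshold in dDG was 543 against 316, and the change of Zfp36 was again 1.38 (edgeR, adjusted p 1.99e-06).

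**Figure D1:**
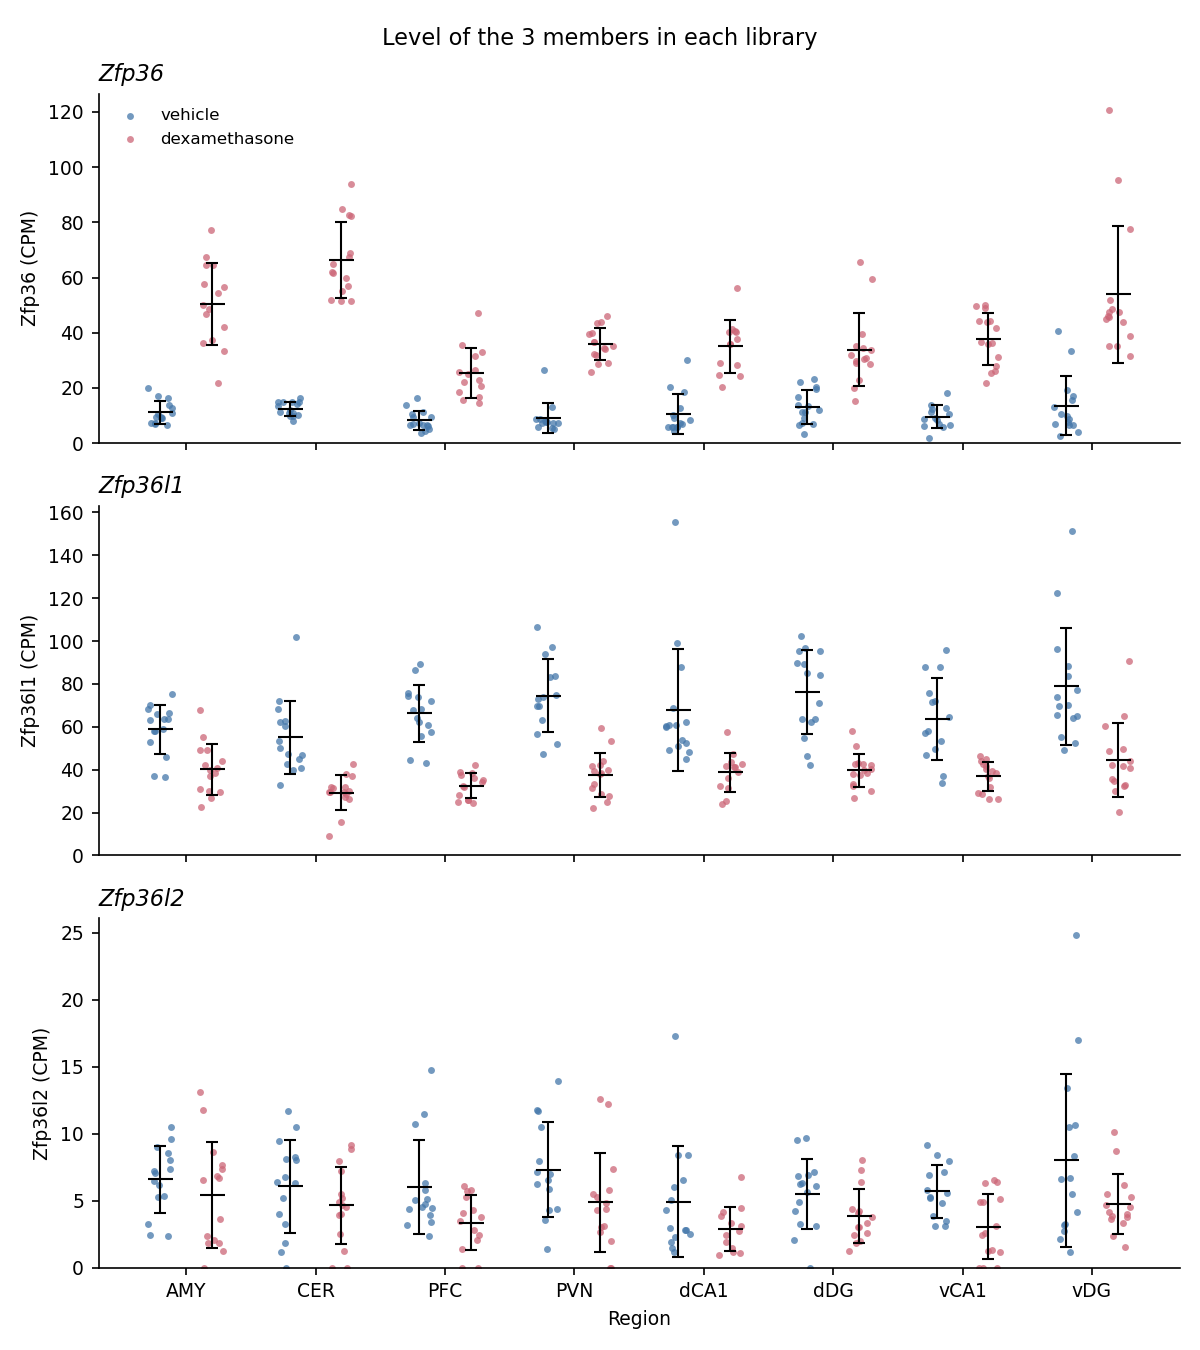
Level of Zfp36, Zfp36l1 and Zfp36l2 (CPM, linear axes) in each of the 235 libraries, by region and arm, with the group mean and SD as black bars. Zfp36 was higher after dexamethasone in every region, Zfp36l1 was lower, and Zfp36l2 lay close to the counting limit in both arms.

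Zfp36l1 moved the other way and fell in 8 of 8 regions, to between 0.491 and 0.683 of its vehicle mean. Of the 117 dexamethasone libraries, 115 lay below the vehicle median of their region and 81 lay below the lowest vehicle library. The arms were fully separated only in PFC, and downward separation was seen in 0.0473% of all gene and region tests.

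In PFC, Zfp36l1 ranged from 43.1 to 89.5 CPM over the vehicle libraries (median 67.8) and from 24.6 to 42.0 CPM after dexamethasone (median 33.3). This was the largest change of Zfp36l1, -1.01 ± 0.11 on the log2 scale (edgeR, adjusted p 1.41e-09), in a region with 2.28% of genes lower, and -1.02 without the library rich in Gabra6. In PVN the vehicle libraries held 47.2 to 106 CPM (median 73.4) and the dexamethasone libraries 22.0 to 59.6 CPM (median 38.3). The change was -0.96 ± 0.12 (edgeR, adjusted p 1.06e-07), with 2.06% of genes lower. In dDG the vehicle libraries held 42.3 to 103 CPM (median 84.0) and the dexamethasone libraries 26.6 to 57.9 CPM (median 39.7). The change was -0.93 ± 0.13 (edgeR, adjusted p 2.67e-06), with 1.37% of genes lower. The region with the smallest rise of Zfp36 thus had 1 of the 3 largest falls of Zfp36l1. In CER the vehicle libraries held 33.0 to 102 CPM (median 50.0) and the dexamethasone libraries 8.99 to 42.5 CPM (median 29.7). The change was -0.91 ± 0.15 (edgeR, adjusted p 1.90e-05), with 2.28% of genes lower, and -0.95 without the library rich in Gabra6.

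The log2 fold changes of Zfp36l1 in the remaining regions lay between -0.81 and -0.56. In vDG the vehicle libraries held 49.3 to 152 CPM (median 70.0) and the dexamethasone libraries 20.1 to 90.6 CPM (median 41.7). The change was -0.81 ± 0.16 (edgeR, adjusted p 0.000721), with 1.29% of genes lower, and was -0.82 without the libraries rich in Gabra6. In vCA1 the vehicle libraries held 33.8 to 95.9 CPM (median 61.2) and the dexamethasone libraries 26.1 to 46.6 CPM (median 38.3). All 15 dexamethasone libraries of vCA1 lay below the vehicle median, and the change was -0.79 ± 0.13 (edgeR, adjusted p 4.98e-05), with 2.04% of genes lower. It was -0.78 with the dentate level as a covariate and -0.77 without the library rich in Gabra6. In dCA1 the vehicle libraries held 45.1 to 156 CPM (median 60.4) and the dexamethasone libraries 24.2 to 57.5 CPM (median 41.4). The highest of these was again vehicle replicate 4. The change was -0.73 ± 0.15 (edgeR, adjusted p 0.00116), with 2.11% of genes lower, and -0.64 without that library. In AMY the vehicle libraries held 36.6 to 75.2 CPM (median 63.1) and the dexamethasone libraries 22.7 to 67.7 CPM (median 39.8). AMY showed the smallest fall, -0.56 ± 0.13 (edgeR, adjusted p 0.0025), with 2.08% of genes lower.

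To place these counts, 7924 genes were tested in all 8 regions. Of these, 70 (0.883%) were higher past the threshold in all 8, as Zfp36 was, and 31 (0.391%) were lower in all 8, as Zfp36l1 was. Both members kept their direction within technical batches. Zfp36 was higher in 32 of 32 comparisons within a region and library plate and in 32 of 32 within a region and punching date. Zfp36l1 was lower in all 32 and all 32 of the same comparisons.

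Zfp36l2 was too sparse for the tests by region. A library held 0 to 14 counts of it, and it did not pass the filter on low counts in any region. Group means ran from 4.95 (dCA1) to 8.01 CPM (vDG) in vehicle and from 2.89 (dCA1) to 5.45 CPM (AMY) after dexamethasone. A library's limit for a count of 0, which is 3 counts, stood at 1.97 to 13.0 CPM, so single libraries say little. Of the dexamethasone libraries, 87 of 117 lay below the vehicle median of their region. Without the filter the log2 fold changes were negative in 8 of 8 regions, from -0.90 (vCA1) to -0.20 (AMY), and none passed (edgeR, smallest adjusted p 0.168). The unadjusted p was under 0.05 in 3 regions (dCA1, PFC and vCA1) with edgeR and in 2 with DESeq2, which also made no call.

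Counts were therefore summed over the 8 regions of each animal, for the 13 vehicle and 13 dexamethasone animals with a library of every region. These sums held 4760039 to 7076142 counts. Zfp36l2 ranged from 3.90 to 8.57 CPM in vehicle animals (median 5.76) and from 1.80 to 5.63 CPM in dexamethasone animals (median 4.02). The ranges overlapped, and Zfp36l2 fell by 0.53 ± 0.13 on the log2 scale (edgeR, adjusted p 0.00336), where 8.82% of 13375 genes were lower. Zfp36l1 ranged from 59.0 to 86.7 CPM in vehicle animals and from 31.4 to 42.6 CPM in dexamethasone animals, and fell by 0.84 ± 0.06 (edgeR, adjusted p 2.18e-13). The arms did not overlap, as for 1.02% of genes in this direction. Zfp36 ranged from 6.73 to 14.5 CPM and from 32.1 to 47.1 CPM, without overlap, as for 1.95% of genes upward. It rose by 2.01 ± 0.09 (edgeR, adjusted p 4.56e-18), a 4.02-fold change, where 9.74% of genes were higher. The same libraries enter these sums and the tests by region, so the sums add precision and not new animals.

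**Figure D2:**
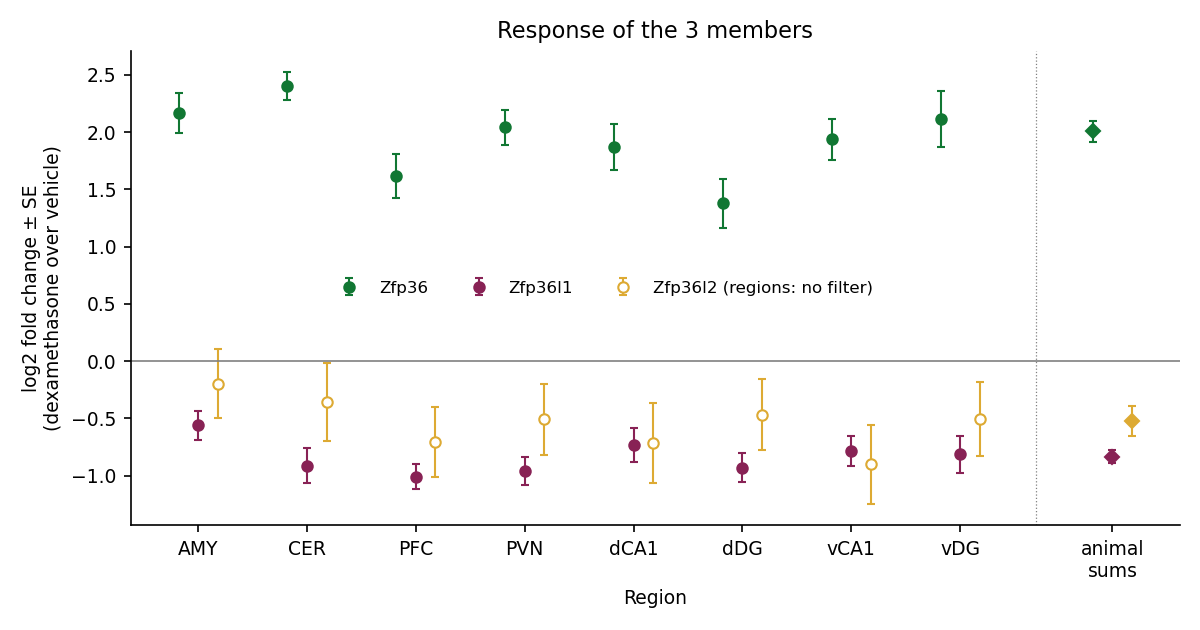
Log2 fold change of dexamethasone over vehicle with its SE for Zfp36, Zfp36l1 and Zfp36l2, by region (circles) and in the animal sums (diamonds). Open circles are the unfiltered fits of Zfp36l2, none of which passed, and Zfp36 lies above 0 and Zfp36l1 below 0 in all 8 regions.

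Whether the size of the response differed among the regions was tested in 1 fit with the animal as a block. For Zfp36 the F statistic was 2.95 with an unadjusted p of 0.00576 and an adjusted p of 0.221 (edgeR), which did not pass, nor without the libraries rich in Gabra6 (adjusted p 0.140). For Zfp36l1 the unadjusted p was 0.284 (edgeR, adjusted p 1.00). In that test 1.27% of 11053 genes passed. The spread of the Zfp36 change, from 1.38 in dDG to 2.40 in CER, was therefore not shown to differ between regions, and this does not show that it was equal.

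In vehicle animals, mean Zfp36 levels ran in the order vDG (13.5 ± 10.7 CPM, SD, n = 15), dDG (13.2 ± 6.15), CER (12.4 ± 2.49), AMY (11.1 ± 4.06), dCA1 (10.5 ± 7.21), vCA1 (9.50 ± 4.14, n = 14), PVN (9.04 ± 5.33, n = 14) and PFC (8.25 ± 3.55). The regions differed when tested together with the animal as a block (edgeR, adjusted p 0.0298), as 73.3% of 10451 genes did. The call was lost without the block (adjusted p 0.0579) and kept without the libraries rich in Gabra6 (adjusted p 0.0312). None of the 7 pairs of neighbours in this order passed the test (edgeR, smallest adjusted p 0.535), whereas pooled over the contrasts of neighbouring regions 33.2% of tests passed. The regions with the highest and the lowest mean, vDG and PFC, differed by 0.56 ± 0.22 (edgeR, adjusted p 0.0436), as 28.7% of genes did. Without the libraries rich in Gabra6 this difference was 0.48 and did not pass (adjusted p 0.143). The place of vDG rests on its mean, which replicates 13 and 14 raised (40.7 and 33.4 CPM). Its median of 9.77 CPM was below those of dDG and CER, and the fitted difference of vDG from dDG was -0.09. The fitted difference of dCA1 from vCA1, -0.05, also ran against the order of means.

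Zfp36l1 levels in vehicle animals ran in the order vDG (78.9 ± 27.3 CPM, SD, n = 15), dDG (76.1 ± 19.6), PVN (74.6 ± 17.2, n = 14), dCA1 (67.7 ± 28.4), PFC (66.4 ± 13.3), vCA1 (63.6 ± 19.1, n = 14), AMY (58.9 ± 11.5) and CER (55.1 ± 17.1). The regions differed when tested together (edgeR, adjusted p 0.00183, and 0.00316 without the libraries rich in Gabra6). Again none of the 7 neighbouring pairs passed (edgeR, smallest adjusted p 0.163). The highest and the lowest region, vDG and CER, differed by 0.48 ± 0.13 (edgeR, adjusted p 0.00173), as 40.4% of genes did. Without the libraries rich in Gabra6 the difference was 0.46 (adjusted p 0.00589). CER, which held the least Zfp36l1 in both arms, held the most Zfp36 after dexamethasone. By mean level vDG and dDG stood first for both members in vehicle animals, and neither member passed the test between that pair. For Zfp36l1 the fitted differences of vDG from dDG (-0.01) and of dCA1 from PFC (-0.06) ran against the order of means.

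The balance between the members was described within each library as the ratio of Zfp36 to Zfp36l1 counts per kilobase of exon, which does not depend on library scaling. In these 3′ end libraries a transcript gives about 1 tag whatever its length, so the length term only shifts all ratios by the same -0.22. The mean log2 ratio in vehicle libraries lay between -3.26 (PVN) and -2.27 (CER). After dexamethasone it lay between -0.62 (PFC) and 0.99 (CER), a shift of 2.28 (dDG) to 3.26 (CER). The arms did not overlap in any of the 8 regions. In CER every dexamethasone library had more Zfp36 than Zfp36l1, from 0.48 to 2.22, while its vehicle libraries ran from -3.03 to -1.33. In PFC the dexamethasone libraries ran from -1.49 to 0.69 and the vehicle libraries from -4.42 to -2.05.

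Per kilobase of exon, Zfp36 made up 8.63% to 16.0% of the family's counts on average in the 8 vehicle groups and 37.6% to 63.5% in the dexamethasone groups. Zfp36l1 made up 77.0% to 84.5% and 32.3% to 57.3%. Zfp36l2 stayed the smallest share, with group means of 4.91% to 7.60% and 3.35% to 5.47%. The exon lengths, 2984 to 3530 bases, enter these shares too, so they differ from shares of the plain counts. The ratio of Zfp36l2 to Zfp36l1 overlapped between arms in all 8 regions, with mean differences from -0.42 (vCA1) to 0.57 (CER).

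**Figure D3:**
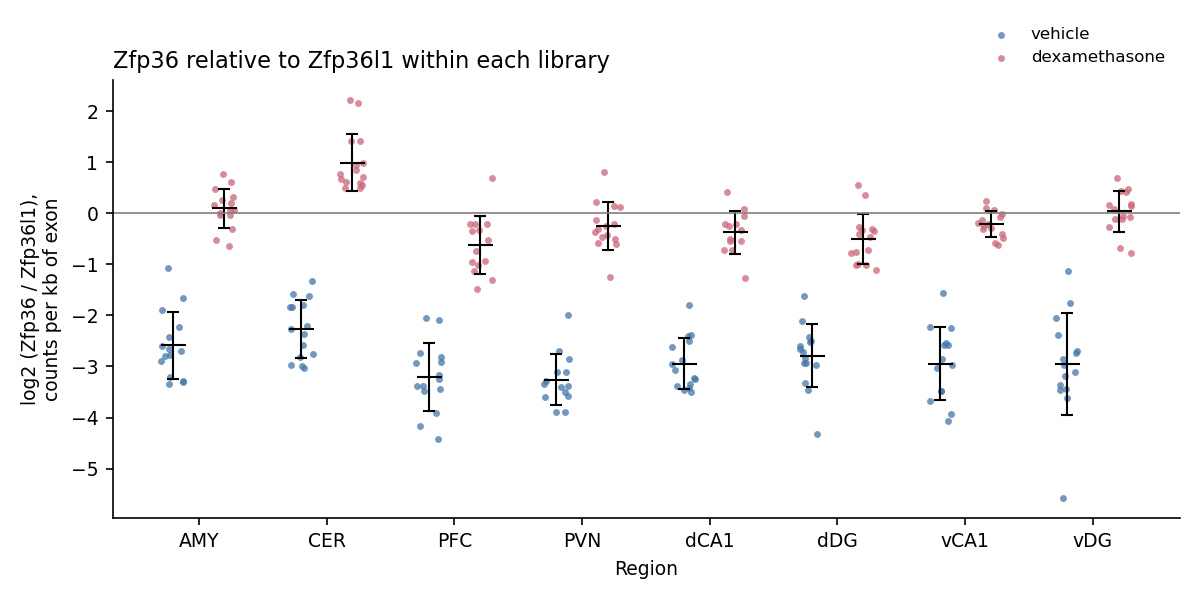
Log2 ratio of Zfp36 to Zfp36l1 counts per kilobase of exon in each library, by region and arm, with the group mean and SD as black bars. The vehicle and dexamethasone libraries do not overlap in any region, and the CER dexamethasone libraries are all above 0.

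The partners through which the family acts were read from lists of genes. Over all genes and regions, 3.23% of 71817 tests were higher and 1.94% were lower. The BTG and TOB proteins bind CCR4-NOT and stimulate it. Of 5 such genes 4 were tested, in 25 gene and region tests, and 13 were higher and 0 lower, and these came from 2 genes, Tob2 and Btg2. Tob2, an antiproliferative adaptor of this family, was higher in 8 of 8 regions. In AMY it ranged from 11.3 to 49.1 CPM in vehicle (median 26.1) and from 44.2 to 71.9 CPM after dexamethasone (median 59.8), with little overlap. That was its largest change, 1.04 ± 0.13 (edgeR, adjusted p 9.30e-08), and the smallest was 0.70 ± 0.13 in vCA1 (edgeR, adjusted p 0.000214). Btg2, a p53-responsive member, was higher in 5 of 8 regions, most in CER. There it ranged from 3.23 to 20.3 CPM in vehicle and from 7.87 to 31.9 CPM after dexamethasone, a change of 0.97 ± 0.19 (edgeR, adjusted p 0.000371). In dCA1 its change was 0.11 ± 0.14 (edgeR, adjusted p 0.881), and in PFC and dDG it did not pass either.

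Of 80 gene and region tests of 10 CCR4-NOT subunits, 1 was higher and 0 lower. The list's median log2 fold change lay between 0.02 and 0.08 over the regions. The call was Cnot6, a catalytic deadenylase, in CER. It ranged there from 84.0 to 156 CPM in vehicle and from 112 to 207 CPM after dexamethasone, with a change of 0.37 ± 0.10 (edgeR, adjusted p 0.00819). In the animal sums 2 of the 10 were higher, Cnot6 by 0.13 and Cnot10 by 0.22 (edgeR, adjusted p 0.00357 and 0.000653). Of all genes in these sums 9.74% were higher. None of the 73 tests of decapping and 5′ to 3′ decay genes passed with edgeR. There, 2 were higher and 2 lower at an unadjusted p under 0.05, and DESeq2 also called 0. None of the 63 tests of RNA exosome genes passed, with 1 higher and 1 lower at an unadjusted p under 0.05 and 0 called by DESeq2.

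Other proteins that bind AU-rich or stem-loop elements, among them the Elavl, Pumilio and Roquin genes, also gave no call in 104 edgeR tests. At an unadjusted p under 0.05, 1 was higher and 5 were lower, and DESeq2 called 1 lower. In the animal sums 14 of these genes were tested, and 9.74% of all genes were higher and 8.82% lower. There Rc3h2 (0.10) and Zc3h12c (0.23) were higher and Elavl3 (-0.14) was lower (edgeR, adjusted p 0.0265, 0.0491 and 0.000215). Among 16 genes of the p38, MK2, 14-3-3 and phosphatase group, 5 of 106 tests were higher, all of Dusp1. Dusp1 is the phosphatase that switches off p38 and is a known glucocorticoid-induced gene. In dDG it ranged from 12.4 to 36.1 CPM in vehicle (median 20.6) and from 22.4 to 70.7 CPM after dexamethasone (median 31.6). The ranges overlapped, and this was its largest change, 0.80 ± 0.17 (edgeR, adjusted p 0.00196). In PFC the change was 0.25 ± 0.13 (edgeR, adjusted p 0.397). Over the animal sums Dusp1 was higher (0.50) and Mapkapk3, a kinase downstream of p38, was lower (-0.46, edgeR, adjusted p 0.0267).

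Of 21 mRNAs reported as targets of the family, 14 did not pass the low-count filter anywhere. The cytokine and chemokine genes were at or near 0. Over all 235 libraries Tnf had 4 counts, Il10 had 0, Csf2 had 1, Il6 had 39 and Il1b had 75. Cxcl1 had the most, 251 counts, with means of 0.570 CPM in vehicle and 2.35 CPM in dexamethasone libraries, and Cxcl2 had 47 counts, with means of 0.0537 and 0.478 CPM. Neither was tested. The heptamer was present in the 3′ untranslated region of 18 of the 21. The 7 targets tested gave 37 tests, with 2 higher and 5 lower, whereas DESeq2 gave 9 higher and 6 lower of 86 tests. Ier3, an early response gene that protects against cell death, was lower in 4 of 7 regions. In PFC it ranged from 20.3 to 38.3 CPM in vehicle (median 30.4) and from 9.47 to 26.0 CPM after dexamethasone (median 16.4). The arms overlapped between 20.3 and 26.0 CPM, and the change was -0.87 ± 0.14 (edgeR, adjusted p 8.98e-06). In CER the change was -0.15 ± 0.16 (edgeR, adjusted p 0.854).

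Ptgs2, which encodes cyclooxygenase 2, was higher in PFC, from 3.04 to 24.6 CPM in vehicle to 14.4 to 34.7 CPM after dexamethasone (change 0.74 ± 0.18, edgeR, adjusted p 0.00415). Notch1, named after its values were seen, was lower in CER by 0.56 ± 0.17 (edgeR, adjusted p 0.0308). In the animal sums 4 of 9 targets tested were higher and 2 lower, where 9.74% and 8.82% of all genes were. Over the regions the median log2 fold change of the targets tested lay between -0.15 and 0.16. Of 33 tests of immediate early genes, 0 were higher and 1 was lower, Arc in CER (-0.79 ± 0.21, edgeR, adjusted p 0.0124).

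Genes with 3 or more copies of the heptamer were set beside all genes, and no difference was tested. In single regions the calls were few, 8 to 18 higher and 5 to 18 lower genes a region. The share called higher was below that of all genes with an annotated 3′ untranslated region in 7 of 8 regions, and the share called lower was above it in 7 of 8. Against genes with 0 copies the higher share was larger, as in PVN (3.93% against 3.07%). The exceptions were dCA1 (2.24% against 2.37%) and dDG (1.83% against 2.13%). The lower share was also larger than that of genes with 0 copies, except in dDG (1.14% against 1.26%). Among the animal sums, where the higher share was instead above that of all genes, 12.2% of 573 such genes were higher and 11.9% lower, against 12.3% and 9.07% of 3496 genes with 1 or 2 copies and 9.88% and 8.91% of all 12822 genes with an annotated 3′ untranslated region. The median log2 fold change of the genes with 3 or more copies was -0.00013, and their untranslated regions were longer, with a median of 3530 bases against 1457.

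**Figure D4:**
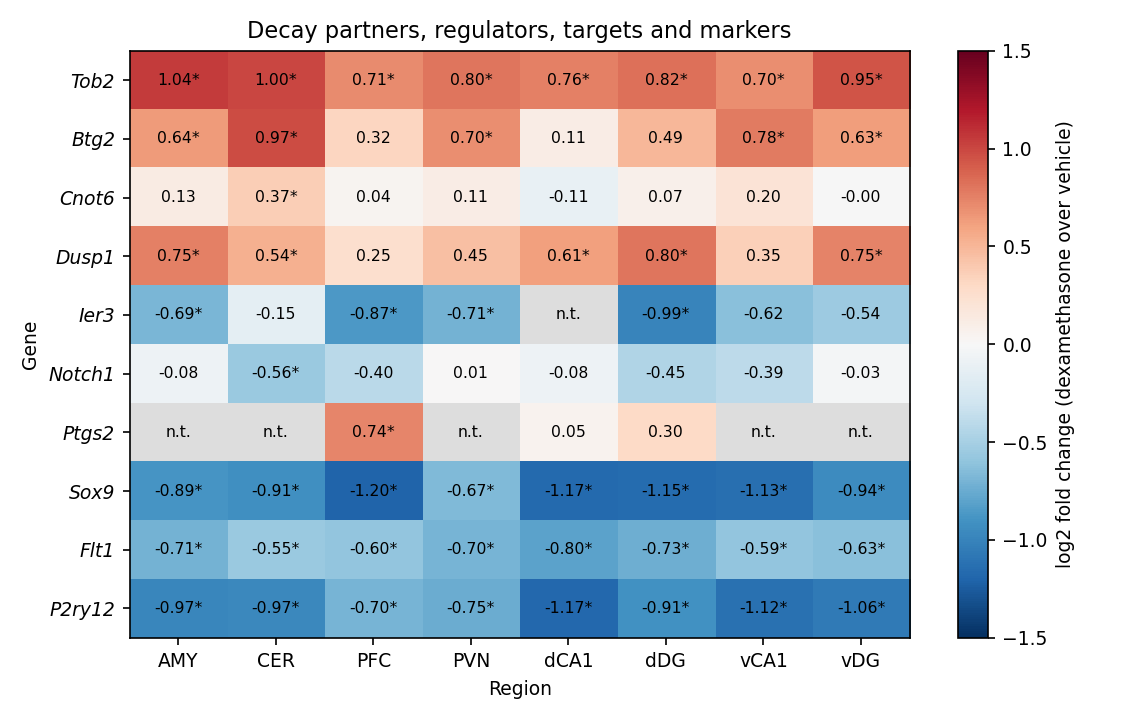
Log2 fold change of dexamethasone over vehicle for genes of the decay partners (Tob2, Btg2, Cnot6), the phosphatase Dusp1, reported targets (Ier3, Notch1, Ptgs2) and cell type markers (Sox9, Flt1, P2ry12) in each region. An asterisk marks an adjusted p under 0.05 and n.t. a gene not tested. Tob2 is higher and Sox9, Flt1 and P2ry12 are lower in all 8 regions. Each of these 3 is the gene of its marker list called in most regions. Of the other genes of these lists, Itm2a was lower in 3 regions, Aqp4 was lower in 1 and Aldh1l1 was higher in 1.

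Genes whose pattern was most like that of each member were ranked by Pearson's r among 11052 others. Over the 16 group means of log2 CPM, which share animals and the same arms, the 5 genes most like Zfp36 were Plin4 (r = 0.986), Wbp1l (0.980), Slc2a1 (0.980), Xdh (0.978) and Nfkbia (0.975). Plin4 coats lipid droplets, Slc2a1 is the glucose transporter of the blood-brain barrier and Nfkbia is the inhibitor of NF-kappaB. Each of the 5 was higher past the threshold in every region in which it was tested. The 3 most like Zfp36l1 were Sox9 (0.948), Kdr (0.939) and Nr3c1 (0.931), which encode an astrocyte transcription factor, the main VEGF receptor and the glucocorticoid receptor. Each was lower in 8 of 8 regions. Between the members r was -0.894.

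Over the 235 libraries with each group's mean removed, the order was different. The 5 genes most like Zfp36 were then Slc44a1 (r = 0.498), Tns1 (0.491), Flt1 (0.477), Scd1 (0.476) and Mobp (0.465). Mobp is a myelin gene and Flt1 a VEGF receptor of endothelium. The 3 most like Zfp36l1 were Sox9 (0.502), Gja1 (0.467) and Apoe (0.461), which are abundant in astrocytes. Between Zfp36 and Zfp36l1 r was 0.309 within groups, against -0.894 across group means. Libraries share depth and tissue content, so these values are descriptions only. Zfp36l2 was too low to enter the ranking.

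Markers of the cell types a punch can hold were read beside the members. For scale, 3.23% of all gene and region tests were higher and 1.94% lower. In the animal sums 9.74% of all genes were higher and 8.82% lower. Summed endothelium markers (8 genes) lay at 0.700 to 0.837 of the vehicle mean, with group means of 318 to 384 CPM in vehicle and 237 to 321 CPM after dexamethasone. Of 40 tests, 11 were lower and 0 higher, with Flt1 lower in 8 of 8 regions and Itm2a in 3. At an unadjusted p under 0.05, 15 were lower and 4 higher (edgeR). Ly6c1 had positive log2 fold changes in 8 of 8 regions, from 0.02 to 0.33, and Esam ran from -0.22 to 0.41. Neither passed there or in the animal sums, at 0.16 for Ly6c1 and 0.15 for Esam. Of the 8 genes, 6 were lower and 0 higher in the animal sums, with Cldn5 at -1.45, Tek at -1.28 and Cdh5 at -0.50 (edgeR, adjusted p 4.29e-10, 5.53e-09 and 0.000266), 3 genes too low for the tests by region. Summed astrocyte markers (8 genes) lay at 0.848 to 0.969 of vehicle, with group means of 5369 to 8331 and 5204 to 7581 CPM. Of 64 tests, 9 were lower and 1 higher, of which 8 were Sox9 and 1 was Aqp4. The higher call was Aldh1l1. In the animal sums 3 were lower, Sox9 (-0.97), Aqp4 (-0.27) and Gja1 (-0.15), and Aldh1l1 was higher (0.35). Summed microglia markers (8 genes) lay at 0.795 to 0.945 of vehicle, with group means of 346 to 656 and 325 to 592 CPM. All 8 lower calls among 50 tests were of P2ry12, and in the animal sums 2 of 8 were lower, P2ry12 (-0.93) and Tmem119 (-0.45). Neuron markers (7 genes) lay at 0.937 to 1.06 of vehicle, with 0 of 56 tests past the threshold (edgeR, 2 lower at an unadjusted p under 0.05, and 0 by DESeq2). Oligodendrocyte markers lay at 0.798 to 1.01, with 1 of 56 tests lower (Mog) and 3 of 7 genes lower in the animal sums. Their median log2 fold change was negative in 8 of 8 regions, from -0.36 to -0.06. Mural and vessel wall markers lay at 0.811 to 1.03, with 1 of 33 tests higher (Col1a2) and 0 lower. In their animal sums 0 were higher and 1 was lower (Acta2, -0.41, edgeR, adjusted p 0.00992). Blood markers lay at 0.737 to 1.02, with 0 of 31 tests past the threshold (edgeR, 2 lower at an unadjusted p under 0.05, and 0 by DESeq2). Choroid plexus markers varied from 0.255 to 3.00 of vehicle, with 1 of 11 tests lower (Ttr), and the highest library held 11774 CPM in vehicle and 13519 CPM after dexamethasone. Of 20 tests of region markers, 3 were lower, all of Prox1. Of 30 tests of the 6 dentate genes, Dsp and Npnt were higher in vCA1 and Plk5 was lower in dCA1. No cell type marker was at 0 in any group, except 1 choroid plexus gene in 2 groups. The fall of Zfp36l1, at 0.491 to 0.683 of vehicle, stood beside lower Sox9, Flt1 and P2ry12 in 8 of 8 regions. Each is the gene of its list called in most regions, and most other genes of these lists gave no call by region. The summed marker levels were not tested, and the part of cell types in the result was not tested.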

How the data were processed

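Tissue was punched from 8 regions of 30 mice, and 3′ end libraries with unique molecular identifiers were made per the labels' protocols. The authors deposited whole-number counts per gene for 235 libraries. Per the submitters' processing notes, FastQC 0.11.4, cutadapt, UMI-tools 0.5.4, STAR 2.6.0a, featureCounts 1.6.4, DESeq2 1.30.1 and R 4.0.5 were used, with the build mm10. The authors' deposited log2 variance-stabilised tables were used only to see that they list 228 libraries, 7 fewer. Groups came from the sample titles and treatment labels.

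Each region was tested with edgeR 4.0.16 (filterByExpr by group, TMM scaling, quasi-likelihood F test, no covariates, R 4.3.3), with Benjamini-Hochberg adjustment over all genes tested and a threshold of 0.05. SEs are the absolute log2 fold change over the square root of F. Animal sums were fitted likewise, and comparisons between regions had the animal as a block. Levels are CPM with TMM factors over all libraries. The log2 ratio used counts plus 0.5. Precision follows from totals of 268538 to 1451422 counts, and limits for a count of 0 cover counting error only. No 2 libraries of a group agreed within sampling noise (smallest chi-square per degree of freedom 1.34). The test was checked on simulated data. Python 3.11.15, numpy 2.4.6, pandas 2.3.3, matplotlib 3.10.9, limma 3.58.1 and DESeq2 1.42.0 were also used.

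Genes named are the members, Zfp36l3, in each list the 3 genes past the threshold in most regions (ties by mean absolute change), and the 5 genes most like Zfp36 and 3 most like Zfp36l1 by each measure. Others with a value are single calls, genes of the animal sums, cytokine genes near 0 and Notch1, chosen after their values were seen. Members and lists were chosen with earlier results of these data known. Alternatives were other normalizations, filters, DESeq2, batch, RIN and replicate terms and smaller sets of libraries. The set without libraries above 10 CPM of Gabra6 was chosen after seeing the data. TATAAA was added to the motif search later. Protein sequences were not used here, and Zfp36l2 was not in the promoter table used. Values of some genes on the lists are not reported here, although the counts over the lists include them.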

Additional observations from a re-analysis of the deposited data

How the results depend on the processing

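Under the alternatives run, all 69 refitted values of Zfp36 (log2 fold change 1.34 to 2.42) and all 76 of Zfp36l1 (-1.02 to -0.56) in single regions kept their direction and passed the threshold (largest adjusted p 0.00331). Requiring 10 counts in each library removed Zfp36 from every fit of single libraries and Zfp36l1 from CER and from the test among regions, so it gives no value there. In the animal sums Zfp36l2 passed under all 4 alternatives, at -0.54 to -0.53. Vehicle and dexamethasone libraries share replicate numbers in the labels, and the 115 same-numbered pairs came from the same plate in 115 cases and the same punching date in 109. The deviations of such pairs had correlations with medians of 0.042 to 0.17 over the regions and at least 1 pair at 0.038 or less in each, and 30 of 115 vehicle libraries correlated best with their own number, out of 13 to 15 candidates each. With a replicate block no call of a member changed. The number of genes past the threshold in dDG moved from 316 to 543 with that replicate block and to 510 with DESeq2.

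With the filter of 10 counts the number of genes past the threshold was 292 in AMY, 286 in CER, 235 in dCA1, 188 in dDG, 345 in PFC, 292 in PVN, 283 in vCA1 and 194 in vDG, because fewer genes were tested. The same filter left 29 genes with a response differing among regions and 3222 with a vehicle level differing among them. With the dentate level as a covariate vCA1 had 278 genes. Without the animal as a block (no replicate block) the adjusted p of Zfp36 for vehicle levels among regions was 0.0579, and for vDG against PFC 0.0664. The cause was not tested. Neighbouring regions in the vehicle order that did not differ changed sign, by -0.0095 for Zfp36 in dDG against CER (upper quartile), 5.7e-05 and 0.0047 for Zfp36l1 in vDG against dDG (filter of 10 counts, upper quartile) and -0.0085 in dDG against PVN (upper quartile). Among the lists, reported targets moved from 2 higher and 5 lower tests to 9 and 6 with DESeq2, and to 10 higher without the filter, and endothelium markers from 11 to 24 lower tests under both. Depth limits Zfp36l2, which held 0 to 14 counts a library.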
